A study of Homo sapiens with 2 samples.

Results

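The ubiquitin-specific proteases (USPs) are the largest family of human deubiquitinases, and their genes were followed here on the pair of arrays of the IRX1 experiment. The members were all probe sets whose only annotated gene symbol is USP followed by a number, with an X or L suffix allowed, which gave 129 probe sets of 45 genes among 54675 probe sets and 19775 named genes. HEK293T, a human line of embryonic kidney origin that expresses a viral large T antigen, was transiently transfected using the polymer polyethylenimine. Cells received the pcDNA3.1 plasmid either for IRX1::GFP, the homeobox factor IRX1 fused to green fluorescent protein, or for GFP alone (GFP control). Total RNA came from GFP-positive cells sorted 48 h later, and 1 Affymetrix array of each condition was analysed here. The experiment asked which genes change when plasmid-driven IRX1 is expressed. Whether an array holds 1 culture or several is not settled, so no error between cultures and no p-value can be given. In RNA of a sorted population, fewer expressing cells and less RNA per cell cannot be told apart.

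Ubiquitin is a small protein that is attached to other proteins as a single unit or as chains, and it marks them for the proteasome, for sorting on membranes or for signalling. Deubiquitinases cut it off again. USPs are cysteine proteases that differ mainly in the domains around their catalytic core, and they act on proteasome-bound chains, histones, repair factors, the p53 and MDM2 pair, endosomal receptors and the ubiquitin-like protein ISG15.

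The values were linear MAS5 signals, scaled per array by the authors. Each gene was read from its brightest probe set (highest mean of both signals), and a mean of at least 183, the median over all probe sets that are not array controls, was required. Of the 45 USP genes 43 passed this level, and of the 129 probe sets 106 did. As background, the 90th percentile over 107 probe sets of olfactory receptors was taken, 179 with IRX1::GFP and 143 in the GFP control, and all 43 brightest probe sets were above it on both arrays. USP26 and USP29, which are known from testis, did not pass the level. The USP26 probe set read 31.4 with IRX1::GFP and 17.8 in the GFP control, and that of USP29 read 6.7 with IRX1::GFP and 4.65 in the GFP control, all below background.

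More USP genes had a lower than a higher signal with IRX1::GFP, but few differed by 2-fold. The log2 ratio (IRX1::GFP relative to the GFP control) had a median of -0.34 over the 43 genes, with quartiles of -0.56 and 0.16, while over all 12193 genes tested it was 0.07, with quartiles of -0.36 and 0.52. A ratio below 0 was seen in 28 of the 43 USP genes, against a background of 45.9% of all genes, and in 73 of the 106 probe sets, against 48.8% of all probe sets. At least 2-fold lower were 2 USP genes, USP39 and USP44, against 5.34% of all genes, which is near the background. No USP gene was at least 2-fold higher, where 10.4% of all genes were. At 1.5-fold, 10 of 43 USP genes were lower, against 15.2% of all genes, and 1, USP2, was higher, against 22.6%. The only measure of noise within these arrays was how far probe sets for the same gene differ, with a log2 SD of 0.49 across 5930 genes and 0.39 across the 34 USP genes with several probe sets past the level. Most single USP ratios lay within 0.49 of 0, and the SD between probe sets is no measure of the spread of a median over genes.

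**Figure D1:**
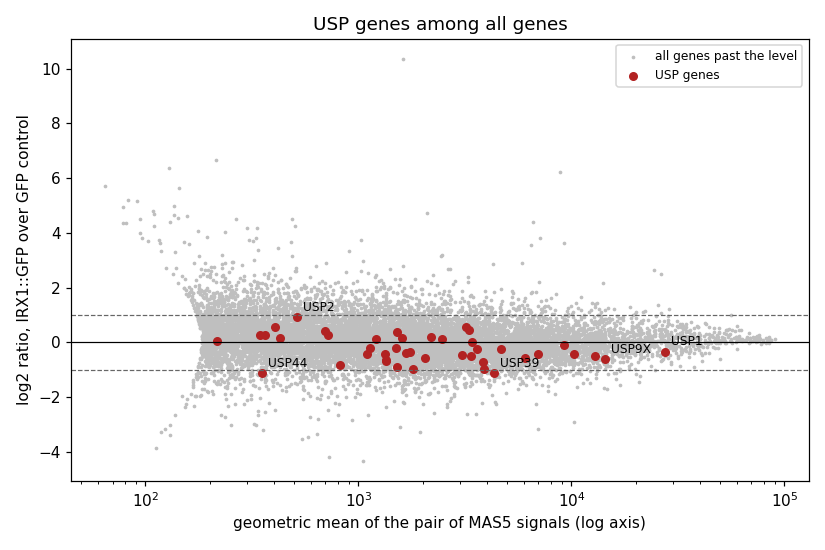
Each point is 1 of the genes past the signal level, with x, a log axis, showing the geometric mean of its MAS5 signals on both arrays, and y the log2 ratio (IRX1::GFP over GFP control); red points are the 43 USP genes, grey points all genes, and dashed lines mark 2-fold. The USP genes lie mostly below 0 and only USP39 and USP44 are past the lower line.

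The shift differed with signal. Among the 22 brighter USP genes the median log2 ratio was -0.43, and among the 21 dimmer ones it was 0.06. Across the 43 USP genes Spearman's rho between mean signal and log2 ratio was -0.36, and across all 12193 genes it was -0.19. These are descriptions over genes of a single pair of libraries, and genes are not replicates. In the middle range of USP signals, 1119 to 3785, 21 USP genes had a median of -0.25 and all 3801 genes a median of -0.04. RNA quality also differed between the arrays. For ACTB, the signal near the RNA's 3-prime end relative to that near its 5-prime end was 1.64 with IRX1::GFP and 3.23 in the GFP control, and for GAPDH it was 1.01 with IRX1::GFP and 1.22 in the GFP control. The part of these differences in the USP ratios was not tested.

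Agreement between probe sets was uneven. Of 34 USP genes with at least 2 probe sets past the level, 19 had all their ratios on one side of 0, a share of 55.9% against 63.1% of all such genes. All below 0 were 15 of them, where the background was 31.9%, and all above 0 were 4, USP2, USP19, USP31 and USP51, where it was 31.2%. The remaining 15 had ratios of both signs. Of all 106 USP probe sets past the level, 7 were at least 2-fold lower, against 6.02% of all probe sets. None was at least 2-fold higher, against 9.15%. At 1.5-fold 27 probe sets were lower, against 16.9%, and 3 were higher, against 20.4%. The 7 at least 2-fold lower belong to USP12, USP24, USP25, USP39, USP44, USP47 and USP53. Thus 7 of 43 USP genes had at least 1 such probe set, against 8.22% of all genes. Those of USP12 and USP24 were below background with IRX1::GFP, at 173 and 141. They passed the level only through their GFP control signals, 385 and 376. No USP gene had a probe set past the level that was at least 2-fold higher, against 14.4% of all genes. USP genes carry more probe sets past the level, 2.47 per gene against 1.86 over all genes, which gives each gene more chances to be counted this way.

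USP39, a member that lacks active-site residues of the family and acts in the assembly of the spliceosome, had the lowest ratio of the brightest probe sets. Its single probe set read 2938 with IRX1::GFP and 6399 in the GFP control, 2.18-fold lower. USP44, which acts on histone H2B and in the mitotic spindle checkpoint, was dim, at 240 with IRX1::GFP and 517 in the GFP control, 2.15-fold lower. The USP44 signal with IRX1::GFP was close to the background of that array, 179. Neither gene has another probe set here, so neither value has a check within its gene, and both passed 2-fold by less than the SD of 0.49.

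USP53, a protein of cell junctions, was lower on each of its 3 probe sets past the level. The brightest read 1106 with IRX1::GFP and 2059 in the GFP control, the next 677 with IRX1::GFP and 1722 in the GFP control, and the dimmest of the 3 read 753 with IRX1::GFP and 1336 in the GFP control. The folds were 1.86, 2.54 and 1.77. Its paralog USP54 has 1 probe set and read 1545 with IRX1::GFP and 1966 in the GFP control, 1.27-fold lower.

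**Figure D2:**
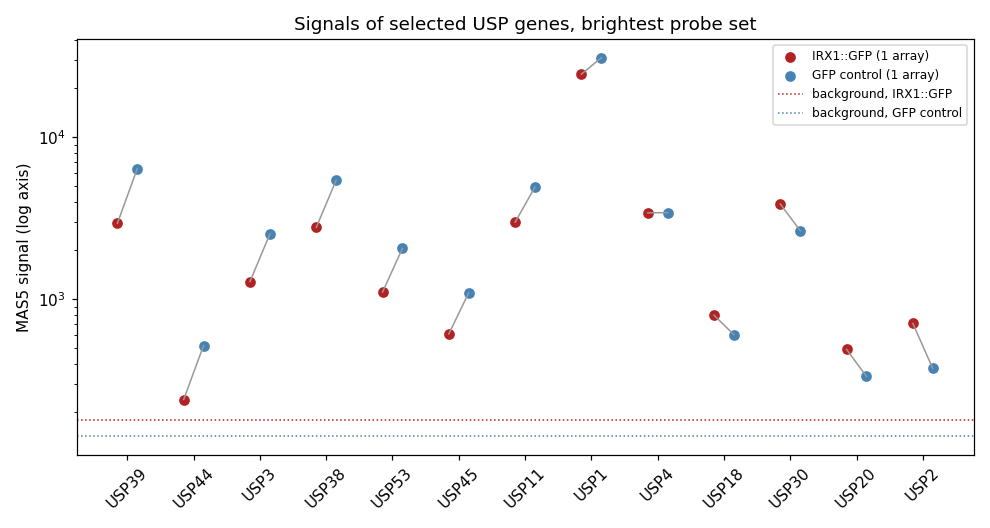
MAS5 signals (y, log axis) of 13 USP genes on the brightest probe set, with the IRX1::GFP array in red at the left of each pair, the GFP control array in blue at its right, and dotted lines at the background of each array. USP39 to USP1 are lower with IRX1::GFP, USP4 is level at 3410 and 3421, USP18 to USP2 are higher, and USP44, at 240, lies closest to background.

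Promoter sequence was taken for the members whose values the text turns on and for those that hold a motif of the transfected factor's family. RefSeq promoters of build GRCh38.p14, each from 250 bases before to 50 after the gene start, were found for 33 of the 43 USP genes past the level. USP44 was not among the 33. They were searched on both strands for 6 motifs. The Iroquois motif was ACANNTGT, a palindrome known from the Drosophila Iroquois protein Mirror. The CCAAT box was searched as the letters of its name, the GC box of SP factors as GGGCGG, and the core bound by ETS factors as CCGGAAG. The TATA box was searched as TATAAA and the element bound by heat shock factors as GAANNTTC. In the sequences below, capitals mark every match of these motifs, and no base is shared by 2 matches. USP39 and USP53 are shown as examples of lower genes, USP2 because it had the highest ratio, and USP30, USP36 and USP46 because they hold the Iroquois motif. USP3 and USP38, with log2 ratios of -0.97 each against -0.9 for USP53, also had promoters and are not shown.
USP39 (chr2:85602611-85602910, plus strand): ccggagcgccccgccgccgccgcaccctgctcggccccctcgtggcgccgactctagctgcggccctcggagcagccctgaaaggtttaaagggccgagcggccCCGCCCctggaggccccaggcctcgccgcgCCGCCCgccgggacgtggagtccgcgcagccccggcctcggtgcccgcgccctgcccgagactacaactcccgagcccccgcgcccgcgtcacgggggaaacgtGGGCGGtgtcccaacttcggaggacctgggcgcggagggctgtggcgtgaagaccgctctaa
USP53 (chr4:119212463-119212762, plus strand): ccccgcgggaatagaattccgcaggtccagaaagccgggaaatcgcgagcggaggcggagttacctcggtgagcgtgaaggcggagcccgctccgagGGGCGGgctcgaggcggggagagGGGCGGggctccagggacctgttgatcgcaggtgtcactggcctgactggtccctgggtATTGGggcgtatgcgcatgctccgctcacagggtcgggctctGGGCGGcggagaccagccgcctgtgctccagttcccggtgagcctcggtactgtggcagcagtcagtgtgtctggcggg
USP2 (chr11:119364159-119364458, minus strand): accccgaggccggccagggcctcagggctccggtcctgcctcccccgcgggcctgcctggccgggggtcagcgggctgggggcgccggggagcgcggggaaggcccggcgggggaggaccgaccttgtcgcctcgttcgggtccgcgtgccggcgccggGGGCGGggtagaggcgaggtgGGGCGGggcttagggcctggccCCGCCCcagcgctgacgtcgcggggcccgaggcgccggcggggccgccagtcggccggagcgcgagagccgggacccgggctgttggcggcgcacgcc
USP30 (chr12:109022839-109023138, plus strand): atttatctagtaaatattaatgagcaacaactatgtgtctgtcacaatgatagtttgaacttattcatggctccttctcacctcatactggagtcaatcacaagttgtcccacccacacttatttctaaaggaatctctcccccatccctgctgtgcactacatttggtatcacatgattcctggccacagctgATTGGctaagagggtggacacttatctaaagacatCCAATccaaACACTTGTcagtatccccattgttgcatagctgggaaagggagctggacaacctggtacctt
USP36 (chr17:78840765-78841064, minus strand): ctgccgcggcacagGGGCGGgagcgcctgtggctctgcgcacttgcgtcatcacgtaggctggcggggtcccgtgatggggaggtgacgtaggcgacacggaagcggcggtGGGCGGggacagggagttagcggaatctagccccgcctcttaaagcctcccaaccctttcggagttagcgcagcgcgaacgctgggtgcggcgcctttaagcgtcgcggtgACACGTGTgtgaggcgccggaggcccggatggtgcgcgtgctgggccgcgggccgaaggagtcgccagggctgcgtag
USP46 (chr4:52656490-52656789, minus strand): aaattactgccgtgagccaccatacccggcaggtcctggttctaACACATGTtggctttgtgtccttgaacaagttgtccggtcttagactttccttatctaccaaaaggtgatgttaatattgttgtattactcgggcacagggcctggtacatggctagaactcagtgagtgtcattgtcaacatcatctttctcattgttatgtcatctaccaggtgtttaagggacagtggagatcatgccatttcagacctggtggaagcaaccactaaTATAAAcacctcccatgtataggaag

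The Iroquois motif was found in 3 of 33 USP promoters, 9.09%, against 2.9% of 9968 promoters of all genes past the level and 5.76% of all 27305 promoters. It starts at position -12 of USP30, -28 of USP36 and -206 of USP46, counted from the gene start. None of the 8 promoters found for the 10 USP genes at least 1.5-fold lower held it, and USP44 is not covered by these 8. The log2 ratios of the 3 genes that held it were 0.55 for USP30, -0.56 for USP36 and -0.19 for USP46. These 3 values lie on both sides of 0, and the probe sets of USP30 and USP46 disagree in sign. GC boxes were found in 27 of 33 USP promoters, 81.8%, against 69.0% of those of all genes past the level. The ETS core was in 27.3% of USP promoters, against 19.0%, the CCAAT box in 27.3%, against 36.7%, and the TATA box in 9.09%, against 5.99%. No USP promoter held the heat shock element, which 4.68% of the promoters of all genes past the level held. The median GC content was 69.7% in USP promoters and 65.3% in those of all genes past the level. A match is a description of these letters in this window and shows no binding.

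On their brightest probe sets, 6 of the 9 USPs of histones and the nucleolus had a ratio below 0. That is near the share of the 43 USP genes, 65.1%, while it was 45.9% over all genes. USP3, which removes ubiquitin from histone H2A, read 1284 with IRX1::GFP and 2523 in the GFP control, 1.97-fold lower, just short of the limit. Its other probe set read 374 with IRX1::GFP and 536 in the GFP control, 1.43-fold lower, so both probe sets were on one side. USP16, another H2A deubiquitinase, was 1.34-fold, 1.17-fold and 1.04-fold lower on its 3 probe sets, the brightest at 5998 with IRX1::GFP and 8023 in the GFP control. USP21, also of H2A, differed by no more than 1.23-fold on any of its 3 probe sets, with both signs. USP36, a nucleolar USP, was lower on all 4 probe sets past the level, by 1.47-fold, 1.95-fold, 1.58-fold and 1.1-fold.

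USP22 is the catalytic subunit of the deubiquitinase module of the SAGA coactivator, which acts on histone H2B, and USP27X and USP51 are related enzymes that use the same partners. The brightest USP22 probe set read 10802 with IRX1::GFP and 15452 in the GFP control, 1.43-fold lower. A dim one read 274 with IRX1::GFP and 183 in the GFP control, 1.49-fold higher, so the probe sets disagree. The mean log2 ratio of these 2 USP22 probe sets was 0.03. Over all 4 it was -1.09, a value that rests on the 2 probe sets below the level. The dimmer of those read 14.4 with IRX1::GFP and 136 in the GFP control, both below background. USP27X read 1256 with IRX1::GFP and 1165 in the GFP control, and USP51 read 401 with IRX1::GFP and 332 in the GFP control, slightly higher on their brightest probe sets. USP49, another H2B deubiquitinase, had ratios near 0 on 3 of its 4 probe sets past the level, and one read 1196 with IRX1::GFP and 657 in the GFP control, 1.82-fold higher. Of the 9 members of this histone and nucleolar group, 1 was at least 2-fold lower, against 5.34% of all genes. None was at least 2-fold higher, against 10.4%, and the median log2 ratio was -0.42.

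ATXN7, the SAGA subunit that anchors the USP22 module, was lower on each of its 3 probe sets. They read 1399, 517 and 178 with IRX1::GFP and 3151, 1323 and 411 in the GFP control. The folds were 2.25, 2.56 and at least 2.3, the last against background. Of the other subunits of the module, ENY2 read 13256 with IRX1::GFP and 13516 in the GFP control, and ATXN7L3 read 1532 with IRX1::GFP and 1279 in the GFP control, 1.2-fold higher.

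USP1, which with its partner WDR48 removes ubiquitin from the repair proteins FANCD2 and PCNA, had the highest signal of all USP genes. It read 24483 with IRX1::GFP and 30908 in the GFP control, while the second probe set read 10580 with IRX1::GFP and 13930 in the GFP control. The folds, 1.26 and 1.32 lower, agree in size, and both lie within the SD. USP12, which also binds WDR48, was 1.6-fold lower at 1061 with IRX1::GFP and 1696 in the GFP control. On a dim probe set it was at least 2.15-fold lower, at 173 with IRX1::GFP, below background, and 385 in the GFP control. Both USP12 probe sets have a suffix that marks shared probes. The USP12 paralog USP46 was 1.14-fold and 1.17-fold lower and, on a dimmer probe set, 1.35-fold higher. WDR48 read 1727 with IRX1::GFP and 1748 in the GFP control on its brightest probe set. Its others were 1.05-fold lower, 1.18-fold higher and 1.51-fold lower. WDR20, a further partner of USP12 and USP46, was 1.25-fold lower at 1476 with IRX1::GFP and 1843 in the GFP control. On its other probe sets it was 1.88-fold lower and 1.22-fold higher.

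Around p53 and the cell cycle, USP2 had the highest log2 ratio of the family, 0.92. USP2 stabilises MDM2 and cyclin D1, and it read 708 with IRX1::GFP and 374 in the GFP control, 1.89-fold higher. A second probe set read 543 with IRX1::GFP and 364 in the GFP control, 1.49-fold higher, and the other 2 were below background on both arrays. USP7, which acts on p53 and MDM2, read 4273 with IRX1::GFP and 5113 in the GFP control on one bright probe set, and 4392 with IRX1::GFP and 3539 in the GFP control on the other, so no direction can be given. Its partner GMPS was 1.49-fold lower on the brightest of 3 probe sets, at 4224 with IRX1::GFP and 6315 in the GFP control, and 2.03-fold and 1.55-fold lower on the others.

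The probe sets of USP28, which stabilises MYC, disagree in sign, with log2 ratios of -0.41, 0.21 and -0.01. Those of USP37, which acts on cyclin A, do too, at -0.37, -0.13 and 0.38. USP42, which also acts on p53, read 2584 with IRX1::GFP and 2379 in the GFP control on its brightest probe set and 1.5-fold higher on the next. Of the 5 measured genes of this p53 and cell cycle group none was past 2-fold in either direction.

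USPs of membranes and organelles differed in sign. USP9X, a large X-linked enzyme of endocytosis and cell signalling, read 11632 with IRX1::GFP and 17621 in the GFP control, 1.51-fold lower, and was 1.78-fold and 1.22-fold lower on the other probe sets past the level. USP8, which acts on receptors at endosomes, was lower by 1.43-fold and 1.47-fold, at 2831 with IRX1::GFP and 4051 in the GFP control on the brighter probe set. The paralogs USP33 and USP20, which act on the recycling of the beta-2 adrenergic receptor, went opposite ways. USP33 read 8826 with IRX1::GFP and 11915 in the GFP control, 1.35-fold lower, and 1.83-fold lower on the second probe set, while USP20 read 490 with IRX1::GFP and 333 in the GFP control, 1.47-fold higher on its only probe set.

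USP30, which sits on the outer mitochondrial membrane and opposes mitophagy, is a case where the choice of probe set sets the sign. One bright probe set read 3867 with IRX1::GFP and 2650 in the GFP control, 1.46-fold higher, and the other, of nearly the same mean signal, read 2678 with IRX1::GFP and 3611 in the GFP control, 1.35-fold lower. USP19, anchored in the endoplasmic reticulum, was 1.14-fold and 1.3-fold higher, at 2332 with IRX1::GFP and 2049 in the GFP control on the brighter probe set. The group of 6 measured genes had a median log2 ratio of -0.12. None was past 2-fold, where 10.4% of all genes were higher and 5.34% lower.

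Among the USPs of signalling pathways, USP4 and USP11 are paralogs that act on TGF-beta receptors. USP4 was level on all 3 probe sets, the brightest at 3410 with IRX1::GFP and 3421 in the GFP control, and its 3 log2 ratios lay between -0.01 and 0. USP11 read 2985 with IRX1::GFP and 4926 in the GFP control, 1.65-fold lower on its only probe set. USP47, which acts in base excision repair and WNT signalling, was lower on all 5 probe sets, from 1.46-fold to 2.14-fold. Its brightest probe set read 4962 with IRX1::GFP and 7326 in the GFP control, and the one at 2.14-fold read 802 with IRX1::GFP and 1713 in the GFP control.

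USP25, which regulates TRAF proteins in inflammatory signalling, read, on the brightest of its probe sets, 1069 with IRX1::GFP and 1689 in the GFP control, 1.58-fold lower. Its second read 263 with IRX1::GFP and 762 in the GFP control, 2.9-fold lower, the largest difference of any USP probe set past the level. The remaining one read 316 with IRX1::GFP and 252 in the GFP control, 1.26-fold higher, so the gene has no single direction. USP34, which stabilises axin in WNT signalling, was 1.37-fold higher on its brightest probe set, at 3878 with IRX1::GFP and 2828 in the GFP control, and 1.67-fold lower on the next, at 2054 with IRX1::GFP and 3427 in the GFP control. In all, 3 of the 5 USP34 probe sets past the level were lower and 2 were higher. The dimmest of the 3 lower ones read 147 with IRX1::GFP, below background, and 269 in the GFP control. It passed the level only through its GFP control signal, so the 5 give no single direction. USP31 was higher on its 3 probe sets past the level, by 1.3-fold, 1.63-fold and 1.31-fold. Over the 6 measured genes of this signalling group the median log2 ratio was -0.28. None was past 2-fold on its brightest probe set, where 10.4% of all genes were higher and 5.34% lower.

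USP14, which works on the proteasome, read 8894 with IRX1::GFP and 9611 in the GFP control, and was 1.08-fold, 1.32-fold and 1.19-fold lower on its 3 probe sets. USP5, which takes apart free ubiquitin chains, read 377 with IRX1::GFP and 317 in the GFP control on its only probe set, and its paralog USP13 read 1149 with IRX1::GFP and 1546 in the GFP control, 1.35-fold lower on the brightest of 3. The dimmest USP13 probe set was 1.12-fold higher. These ratios all lie near or within the SD between probe sets. USP18, which removes ISG15 and is induced by interferon, read 797 with IRX1::GFP and 604 in the GFP control, 1.32-fold higher.

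Of the remaining members, USP38 came close to the limit on its main probe sets. USP38, which has been linked to innate immune signalling, read 2770 with IRX1::GFP and 5422 in the GFP control, 1.96-fold lower, while the next probe set read 893 with IRX1::GFP and 1764 in the GFP control, 1.98-fold lower. Its dim probe set read 215 with IRX1::GFP and 258 in the GFP control, 1.2-fold lower. USP45, a DNA repair USP, was lower on all 3 probe sets by 1.79-fold, 1.53-fold and 1.31-fold, the brightest at 610 with IRX1::GFP and 1095 in the GFP control. USP24 was 1.38-fold, 1.34-fold and at least 2.1-fold lower, the last on a probe set at 141 with IRX1::GFP, below background, and 376 in the GFP control. The probe sets of USP48, a regulator of NF-kappa B, and of USP40 had both signs, with log2 ratios from -0.56 to 0.11 for USP48 and from -0.43 to 0.27 for USP40. USP35 read 455 with IRX1::GFP and 406 in the GFP control, and USP43 read 220 with IRX1::GFP and 211 in the GFP control, both level.

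The other deubiquitinase families were counted for comparison, over lists chosen by function. Of their 33 genes past the level, none was at least 2-fold higher on its brightest probe set, against 10.4% of all genes. At least 2-fold lower were 5, against 5.34%, and the median log2 ratio was -0.01. A dim second probe set of TNFAIP3, an OTU gene, was at least 2.39-fold higher. It read 342 with IRX1::GFP and 49.9 in the GFP control, the second below background. The OTU family had 1 of 13 lower, ZRANB1, which read 2359 with IRX1::GFP and 5449 in the GFP control, although its other probe sets were 1.28-fold and 1.3-fold lower. Of 10 JAMM metalloproteases 1 was lower, PSMD14, the deubiquitinase of the proteasome lid, at 8308 with IRX1::GFP and 20538 in the GFP control, 2.47-fold. ZUP1, a K63-chain enzyme linked to DNA repair, was 3.56-fold lower at 1147 with IRX1::GFP and 4088 in the GFP control. MINDY3 was 2.45-fold lower on the brighter of its probe sets, at 1750 with IRX1::GFP and 4281 in the GFP control. JOSD2 was at least 3.19-fold lower, from 1 probe set at 90.1 with IRX1::GFP, below background, and 569 in the GFP control.

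None of the 3 UCH genes was past 2-fold, where 10.4% of all genes were higher and 5.34% lower. UCHL1, a neuronal hydrolase, read 10192 with IRX1::GFP and 6631 in the GFP control. Among genes with a USP fold outside the symbol rule, USPL1, which removes SUMO, was 2.15-fold lower at 1597 with IRX1::GFP and 3438 in the GFP control. PAN2 read 2150 with IRX1::GFP and 1628 in the GFP control. CYLD read 1166 with IRX1::GFP and 1161 in the GFP control on its brightest probe set. Its others past the level were 1.72-fold, 1.58-fold, 1.17-fold and 1.13-fold higher and, on another, 1.24-fold lower. Of the 11 USP cofactors past the level 2 were at least 2-fold lower, ATXN7 and G3BP1, against 5.34% of all genes, and none was higher, against 10.4%, with a median log2 ratio of -0.32. G3BP1, a stress granule protein that binds USP10, read 6773 with IRX1::GFP and 14151 in the GFP control, and all 6 of its probe sets past the level were lower. USP10 itself is not among the members and has no value here. Of the ubiquitin genes 1 was named here, UBB, at 81413 with IRX1::GFP and 77788 in the GFP control, near the top of the signal range. The medians of these lists and of the USP genes were not tested against each other.

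**Figure D3:**
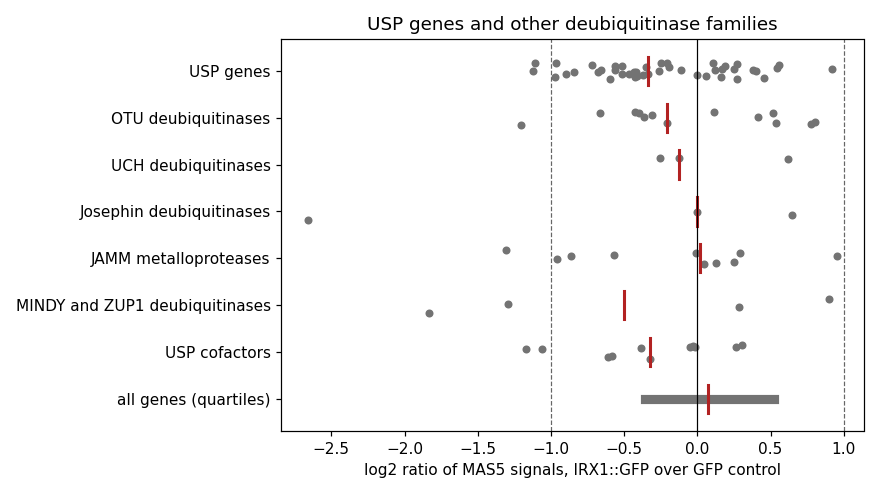
Log2 ratios (IRX1::GFP relative to the GFP control, x) of genes past the level in the USP family, in 5 other deubiquitinase families and among USP cofactors (rows), 1 point per gene, with red lines at the medians, a grey bar at the quartiles of all genes and dashed lines at 2-fold. The USP median is -0.34 and that of all genes 0.07, and the point farthest left is JOSD2, whose IRX1::GFP signal was below background.

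As a check of the cells, all 5 measured marker genes of HEK293T passed the level, with NEFL at 8765 with IRX1::GFP and 3205 in the GFP control and a summed signal of the list of 18806 with IRX1::GFP and 16949 in the GFP control. NEFM, another of them, read 8206 with IRX1::GFP and 4292 in the GFP control, and LIN28B read 1436 with IRX1::GFP and 8740 in the GFP control. EYA1 read 120 with IRX1::GFP, below background, and 578 in the GFP control. PAX2 read 278 with IRX1::GFP and 134 in the GFP control, the second below background. EYA1 and PAX2 thus passed the level through 1 array each. Of the blood markers, CD14 read 856 with IRX1::GFP and 327 in the GFP control, and CD3E read 168 with IRX1::GFP, below background, and 244 in the GFP control. The blood marker PTPRC was below background on both arrays on all its probe sets. Of the endothelial markers, CDH5 was below background on both arrays, and the brightest PECAM1 probe set read 203 with IRX1::GFP and 178 in the GFP control, both above background. Of the 3 fibroblast markers, COL1A1 read 2571 with IRX1::GFP and 631 in the GFP control, and COL1A2 and DCN did not pass the level. The part of these marker differences in the USP ratios was not tested. The only IRX1 probe set read 57 with IRX1::GFP and 33.1 in the GFP control, both below background, and its place relative to the transfected sequence was not examined, so no check of the labels comes from it.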

How the data were processed

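RNA of sorted HEK293T cells was hybridised to Affymetrix HG-U133 Plus 2.0 arrays, 1 for IRX1::GFP and 1 for the GFP control. The authors deposited an intensity per probe set, the linear MAS5 signal. The submitters' processing notes name MAS5 but no version. The mean of each array without its lowest and highest 2% was 1000, so the authors had scaled both arrays alike. The median signal was 195 with IRX1::GFP and 171 in the GFP control, and precision is limited by having so few arrays.

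Probe sets were named from the platform annotation. Of 54675 probe sets, 41091 had 1 symbol, 1801 had several and were not named, among them 5 with a USP symbol, and 11783 were unnamed here or were 62 array controls. Symbols were updated by gene identifier through the RefSeq table of GRCh38.p14, where 41037 were found. A log2 ratio was taken of both signals. A fold with 1 signal below background was computed against the background and is a lower bound, and no fold is given with both below it. No test was possible, since either condition had 1 array.

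The genes named with full values were those with a probe set past 2-fold, between 1.7-fold and 2-fold, with probe sets of opposite sign or among the 6 highest signals, and others were added by role. The members and lists were chosen with earlier results of these data known. Alternatives were median centring, quantile normalization, loess (span 0.3), dropping the filter, filtering at the 75th percentile or at background, signals floored at the median, averaging the probe sets of each gene, leaving out probe sets with a suffix that marks shared probes, and a limit of 1.5-fold. The scripts ran in Python 3.11.15 with pandas 2.3.3 and numpy 2.4.6, loess came from statsmodels 0.14.6, and figures were drawn in matplotlib 3.10.9.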

Additional observations from a re-analysis of the deposited data

How the results depend on the processing

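The median log2 ratio of USP genes was below 0 under each of the 9 alternatives run for it and moved by at most 0.1. It ran from -0.41 after median centring and with the filter at the 75th percentile to -0.24 as the mean over probe sets. The USP median minus that of all genes was -0.41 as reported and -0.3 with only probe sets without a suffix. Below 0 were 28 of 43 USP genes as reported, 26 of 33 with the filter at the 75th percentile, and 19 of 34 with only probe sets without a suffix. The count of USP genes at least 2-fold lower was 2 of 43 as reported and 4 of 43 after median centring, where USP3 and USP38 were added. As the mean over probe sets it was 3 of 43, where USP22 was added through its probe sets below the level. It was 1 of 33 with the filter at the 75th percentile, which leaves out USP44. With only probe sets without a suffix, which leave out USP39, it was 1 of 34. At 1.5-fold 10 of 43 genes were lower, against 15.2% of all genes, and 1 was higher, against 22.6%. The count of USP probe sets at least 2-fold lower, 7 as reported, was 11 with no filter, 3 with the filter at the 75th percentile, 3 with only probe sets without a suffix and 27 at 1.5-fold. The count of those at least 2-fold higher, 0 as reported, was 5 with no filter, 1 with the filter at background and 3 at 1.5-fold. Over all genes, 1267 higher and 651 lower of 12193 genes passed 2-fold as reported. These counts were 3456 and 1983 of 19775 with no filter, and 513 and 415 of 7678 with the filter at the 75th percentile. After median centring they were 1115 and 774 of 12193, and as the mean over probe sets 1386 and 562 of 12193. With only probe sets without a suffix they were 947 and 542 of 9302. Centring takes the median of all genes, 0.07, off each log2 ratio, which put USP3 at -1.05 and USP38 at -1.04, and the filters and the lower limit act through the probe sets they admit. Of 167 values of 29 named genes under alternatives, 160 moved by less than the SD of 0.49 given above for probe sets, and USP39 and USP44 kept their sign wherever they were measured, while USP21, USP25, USP28, USP34 and USP40 changed sign as given next. The log2 ratio of USP22 was -1.09, that of USP34 -0.15, that of USP30 0.06, that of USP42 0.99, that of USP21 0.02 and that of USP40 -0.08 as the mean over all probe sets, dim ones included. Over only the probe sets past the level, the mean was 0.03 for USP22, 0.23 for USP42 and -0.36 for USP34. With only probe sets without a suffix the log2 ratio was 0.33 for USP25, 0.21 for USP28 and -0.82 for USP34. No paired analysis was possible because a single array stands for either condition.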

Other observations

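Of the 23 USP probe sets below the signal level, 18 were below background on both arrays and have no fold. A dim USP31 probe set, just short of the level, read 262 with IRX1::GFP and 105 in the GFP control, the second below background, at least 1.83-fold higher. It lies on the same side of 0 as the 3 USP31 probe sets past the level.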
